A study of Drosophila melanogaster with 2 samples.

Results

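The genes of the Notch signalling pathway and of the Enhancer of split, E(spl), and Bearded complexes were examined for binding of the nerfin-2 protein in Drosophila melanogaster embryos. The 34 listed genes were chosen by name, and 32 of them were matched in the Ensembl annotation, out of 13968 protein-coding genes on the main chromosome arms. They comprised 16 pathway components and 16 target genes, which were 12 genes of the E(spl) complex and 4 of the Bearded complex. BobB and BobC were not matched and are not analysed here. Both samples were chromatin of whole embryos of a transgenic strain named nerfin-2-GFP, collected between 8 and 24 h of age, in which nerfin-2 is expressed as a fusion to eGFP. Chromatin was immunoprecipitated with an antibody to GFP and sequenced (ChIP-seq), and the labels number the samples as biological replicates 1 and 2 of 1 group. Both samples carried the tagged protein, and the control experiment named in the labels was not analysed here, so no comparison with an untagged strain or an input was made. Whether the deposited peaks were called against that control is not known from the sources used here. A whole embryo mixes all cell types, so fewer bound cells and weaker binding in each cell cannot be told apart.

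Notch is a surface receptor that is cut when a ligand on a neighbouring cell pulls on it, and its freed intracellular domain enters the nucleus. There it joins the DNA-binding protein Su(H) and the coactivator mam and switches on target genes, among them the E(spl) genes, whose products repress the neural fate. In the embryo the pathway selects single neural precursors from groups of equivalent cells and sets the different fates of sister cells, while the Bearded family proteins act against the ubiquitin ligase neur and so dampen ligand activity. The zinc finger gene nerfin-2 is a relative of nerfin-1, which acts in young neurons.

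The data were lists of called peaks on build dm6, with no read numbers, so the sequencing depth behind each value is unknown. On the main arms, the conservative thresholded list across both replicates held 2793 calls, a second thresholded list across replicates held 3358, and the thresholded lists of the single replicates held 2554 for replicate 1 and 1737 for replicate 2. Each had a ranked list behind it of 128864 to 153691 calls, most of them far weaker. Signal is the peak caller's own value for each call and carries no physical unit. Its median was 121 in the conservative list, 76.2 in replicate 1 and 74.4 in replicate 2. A gene was counted as called when the summit of a peak, its highest point, lay within 500 bp of any annotated transcription start site (TSS) of the gene. Summits inside the gene body were counted separately.

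The pathway components were called at their start sites more often than the target genes were. In the conservative list, 7 of the 32 genes had a summit near a TSS, against 19.4% of all protein-coding genes. Of these, 6 were among the 16 components (mib1, kuz, pen-2, Su(H), mam and gro), a share of 37.5%, and 1 was among the 16 targets (E(spl)m8-HLH), a share of 6.25%. The second list held 8 of the 16 components, adding Ser and neur, and 0 of the 16 targets, against 21.4% of all genes. In replicate 1 alone the same 6 components and 0 targets were called, against 18% (2514) of all 13968 genes, and in replicate 2 alone 4 components (mib1, Su(H), mam and gro) and 0 targets were called, against 13.6% of all genes. The share for all 32 genes together, 21.9% in the conservative list, was close to that of all genes, and the difference lay between the sets. No test was made of it, because the target genes sit side by side in 2 clusters and genes are not replicates. The sets also differ in start sites, and each start site adds a window. Among components, gro has 4, mam and Psn have 3, and Ser, neur and mib1 have 2. Of the targets only Ocho has more than 1, with 2. The called genes kuz, pen-2 and Su(H) have 1 each.

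**Figure D1:**
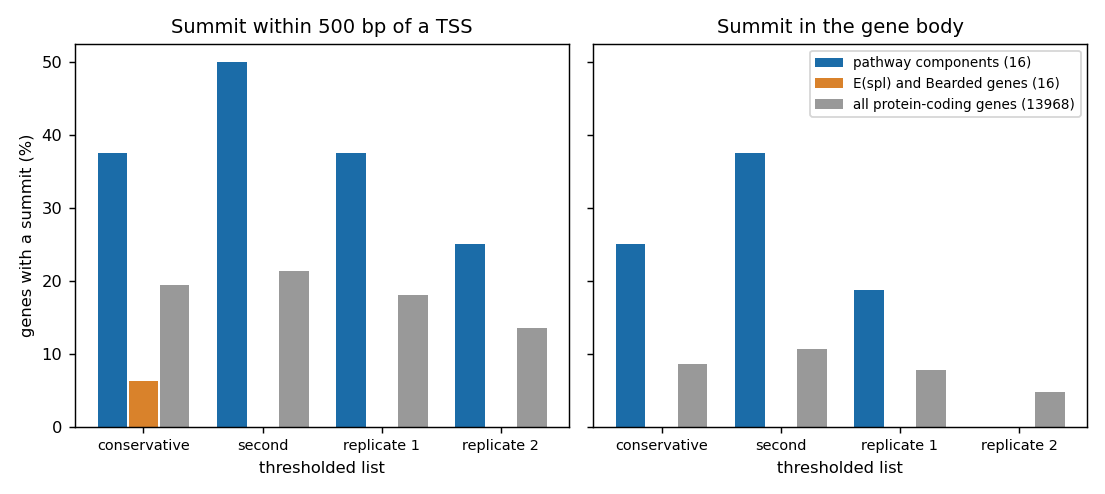
Percentage of genes with a summit within 500 bp of a TSS (left) and within the gene body (right) in each thresholded list, for the 16 pathway components, the 16 E(spl) and Bearded genes and all 13968 protein-coding genes. The component bars stand above those of all genes in every list near a TSS, from 25% to 50%, and the only visible bar of the E(spl) and Bearded genes is the 6.25% of the conservative list. No body summit of a component was called in replicate 2.

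Summits within gene bodies were counted in the same thresholded lists. The conservative list had a body summit in 4 of the 32 genes (neur, kuz, Su(H) and mam) and in 8.54% of all genes. The counts were 6 of 32 in the second list, against 10.7% of all genes, 3 of 32 in replicate 1, against 7.73%, and 0 of 32 in replicate 2, against 4.70%. All of the genes with a body summit were components, but the target bodies are short, so their lack of one is not read as a division. Some body summits were those already counted near a TSS. Without summits within 500 bp of the gene's own TSSs, the conservative list kept 3 of the 32 genes (neur, kuz and mam), against 3.11% of all genes. Long genes hold more summits, and the components had a median length of 7.58 kb, against 0.960 kb for the targets and 2.16 kb for all genes. The 6 components called near a TSS ranged from 1.32 to 89.3 kb with a median of 6.72 kb, and included the longest of the 16, kuz and mam, against 1.05 to 37.4 kb with a median of 13.1 kb for the 10 that were not called.

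The receptor gene N had no call in any thresholded list. Its strongest ranked call near a TSS reached 28.2 in replicate 1 and 32.6 in replicate 2, and the irreproducible discovery rate (IDR), which measures how poorly the rank of a call holds between sets of calls, was 0.0434 in the ranked list behind the conservative one. Among the ligands, Ser had 41.5 in replicate 1 and 25.9 in replicate 2, and Delta (Dl) had 23.1 in replicate 1 and no ranked call near its TSS in replicate 2. Delta was the component with the weakest call across replicates, at 13.1, the 5.45th percentile of genes with such a call. Ser passed only in the second list, with a summit 99 bp upstream of a TSS and a signal of 75.4.

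The 2 ubiquitin ligases that activate the ligands differed. mib1 was called in all 4 thresholded lists, with 97.7 in replicate 1, 62.2 in replicate 2 and 155 across replicates, at a summit 39 bp upstream of its TSS (chr3L:16011651-16012050, rank 983 of the conservative list by signal). The gene neur had a conservative summit of signal 88.9 562 bp from its nearest TSS and therefore outside the 500 bp window, in an intron at chr3R:9038709-9039108. In that interval the ranked lists gave 55.0 in replicate 1 and 47.2 in replicate 2. The same summit lay 149 bp from the TSS of hyx, a gene of the Paf1 transcription elongation complex whose body overlaps neur on the opposite strand, so the call cannot be given to either gene alone. A second neur summit, 135 bp upstream of its TSS and also within 500 bp of a hyx TSS, passed only in the second list, with a signal of 67.0. Its ranked calls were 29.6 in replicate 1 and 47.6 in replicate 2. Unlike mib1, this site was higher in replicate 2.

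Of the genes that modify and route Notch, fng, the glycosyltransferase that sets which ligand Notch answers, had 29.4 in replicate 1 and 26.3 in replicate 2. spdo, a membrane protein needed for Notch signalling in asymmetric division, had 19.0 in replicate 1 and 24.6 in replicate 2. Neither was in a thresholded list. The medians over all genes were 27.3 in replicate 1 and 22.6 in replicate 2, and spdo in replicate 1 was the only one of these values below its median.

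The protease gene kuz, whose product makes the first ligand-induced cut in Notch, had a summit in its 5′ UTR 135 bp downstream of the TSS, at chr2L:13550074-13550473. Its signal was 68.5 in replicate 1 and 29.8 in replicate 2, and 96.0 across replicates, with an IDR of 0.0100. Of the component calls near a TSS in the conservative list, it had the highest IDR, and replicate 2 alone did not hold it. A second conservative summit lay in an intron 31737 bp from the TSS, 88 bp from an annotated INE-1 transposable element, with 45.8 in replicate 1, 40.0 in replicate 2 and 92.7 across replicates. At this intronic site the replicates were closer to each other than at the promoter.

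The γ-secretase complex, which makes the final cut in Notch, was uneven. pen-2, its smallest subunit, had 102 in replicate 1, 53.3 in replicate 2 and 134 across replicates. Psn, the catalytic subunit, had 49.5 in replicate 1 and 29.4 in replicate 2, and its call across replicates, with a signal of 64.1 and an IDR of 0.0134, was just outside the conservative list. aph-1 had 29.6 in replicate 1 and 14.5 in replicate 2, and nct had 16.6 in replicate 1 and no ranked promoter call in replicate 2. The pen-2 summit lay 158 bp upstream of pen-2 and 104 bp from the TSS of Ote, a nuclear lamina gene that starts 262 bp away on the opposite strand. In replicate 1 alone the summit was nearer to pen-2, at 92 bp. When each summit was given to its nearest TSS only, pen-2 was the component that dropped out, which left 5 components.

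The nuclear genes held the strongest calls of the pathway. The coactivator gene mam had 132 in replicate 1 and 94.6 in replicate 2, the DNA-binding factor gene Su(H) had 119 and 83.9 in the same order, and the corepressor gene gro had 121 and 83.3. H, whose product Hairless ties Su(H) to corepressors when Notch is off, had 32.5 in replicate 1 and 29.7 in replicate 2 and was in no thresholded list. Across replicates the signal was 226 at mam (rank 506), 191 at Su(H) (rank 714), 184 at gro (rank 754) and 58.7 at H. All 3 called nuclear genes were in all 4 thresholded lists, as was mib1, and their summits lay 94 bp upstream of mam, 11 bp downstream of the Su(H) TSS and 83 bp upstream of gro. The TSS of RN-tre, a gene for a Rab GTPase-activating protein, lay within 500 bp of the mam summit as well, and the 2 genes start 496 bp apart on opposite strands. None of these calls was among the 500 strongest conservative peaks.

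The sequences under 3 of these promoter summits, from the Release 6 assembly, are shown because these calls passed in every thresholded list. Each reads 5′ to 3′ on the strand of its gene, and capitals mark a match to any of the strings searched, which are given further on. The Su(H) window is chr2L:15039449-15039517 on the plus strand, gro is chr3R:26041603-26041703 on the plus strand and mib1 is chr3L:16011801-16011901 on the minus strand. The gro and mib1 windows are 101 bp long and centred on the summit. That of Su(H) is 69 bp long and reaches less far downstream of its summit than upstream.
Su(H): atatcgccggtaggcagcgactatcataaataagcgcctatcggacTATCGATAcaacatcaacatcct
gro: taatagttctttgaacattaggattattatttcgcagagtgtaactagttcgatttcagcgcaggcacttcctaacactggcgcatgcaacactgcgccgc
mib1: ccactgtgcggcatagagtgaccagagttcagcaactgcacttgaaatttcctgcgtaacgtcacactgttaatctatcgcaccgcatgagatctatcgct
The match at Su(H) is the DRE, the element read by the factor DREF at many housekeeping promoters, and its letters covered the summit base itself, starting 7 bp downstream of the TSS. The gro and mib1 windows held none of the strings. A second Su(H)-side summit lay 600 bp upstream of Su(H) and 27 bp from the TSS of CIAPIN1, an iron-sulphur protein assembly gene, with 77.4 in replicate 1, 59.5 in replicate 2 and 141 across replicates.

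Within mam, the longest called gene after kuz at 69.2 kb, the replicates differed. A summit in an intron, 924 bp from the microRNA gene mir-4978, had 107 in replicate 1 and 23.3 in replicate 2, and another, 84 bp upstream of an internal mam TSS, had 90.4 in replicate 1 and 27.6 in replicate 2. Both were in the thresholded list of replicate 1 and in the second list, with 122 and 118 across replicates, and in neither the conservative list nor that of replicate 2. A weaker intronic summit with like values in both replicates, 39.3 in replicate 1 and 41.0 in replicate 2, was in the conservative list at 75.7. Why the internal sites differed between replicates was not tested.

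**Figure D2:**
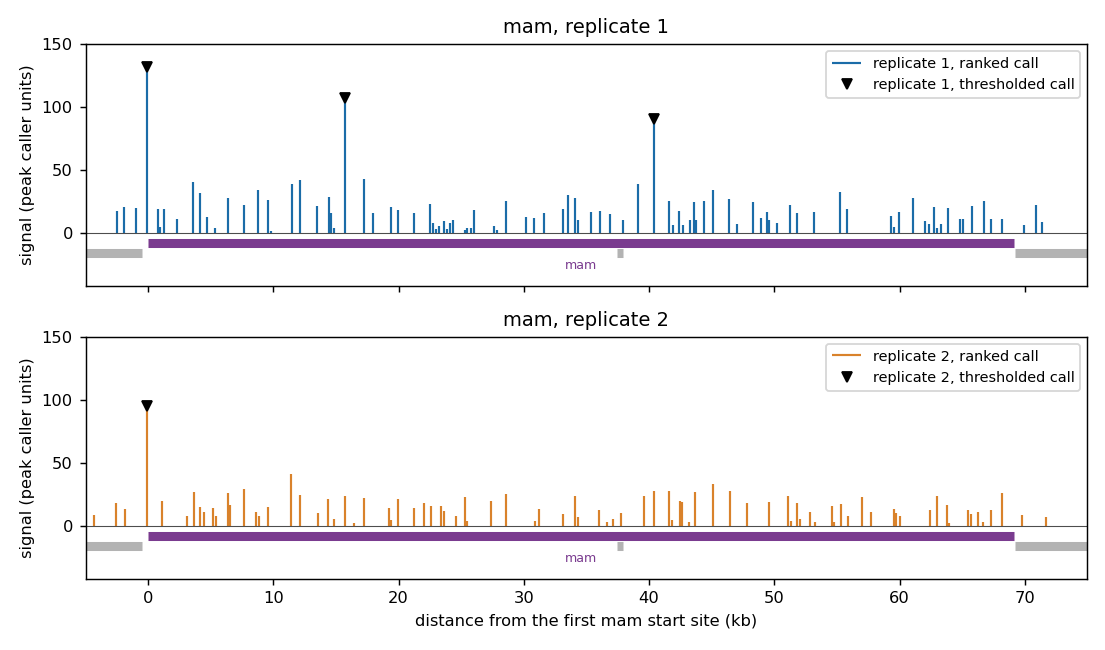
Ranked calls (lines, height is signal in peak caller units) and thresholded calls (triangles) along mam in replicate 1 and replicate 2, by distance in kb from the first mam TSS. The purple bar is mam and grey bars are other protein-coding genes. The promoter call stands out in both replicates, at 132 and 94.6, while the internal calls of 107 and 90.4 in replicate 1 stand at sites where replicate 2 has weak ranked calls of 23.3 and 27.6.

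The E(spl) complex lies directly upstream of gro on chromosome arm 3R, at chr3R:25997621-26041008. Of its 12 genes, 7 encode basic helix-loop-helix (bHLH) repressors, 4 encode Bearded family proteins and m1 belongs to neither family. Over these 43.4 kb the conservative list had 3 summits, 2 of them in overlapping calls, or 0.691 per 10 kb, against 0.203 per 10 kb over the genome. The second list and both replicate lists had 0, against 0.126 to 0.244 per 10 kb over the genome. At such low rates, 0 summits over 43.4 kb is not read as a lack. The ranked list behind the conservative one held 65 summits there, or 15.0 per 10 kb, against 10.8 per 10 kb over the genome. Replicate 1 had 63 ranked summits with a highest signal of 44.1, and replicate 2 had 50 with a highest signal of 42.5. No ranked call within the complex reached the median of the thresholded list of either replicate.

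Of the 3 conservative summits, the strongest lay 584 bp upstream of E(spl)m3-HLH, outside the 500 bp window and 163 bp from the non-coding gene lncRNA:CR43644, with 35.0 in replicate 1, 42.5 in replicate 2 and 77.1 across replicates. The other 2 were overlapping calls upstream of E(spl)m8-HLH. The stronger, 690 bp from the TSS, had 44.1 in replicate 1, 35.6 in replicate 2 and 61.0 across replicates. The weaker, 483 bp from the TSS and so just inside the window, had a signal of only 7.54 across replicates and an IDR of 0.00616. It is the single call that counts E(spl)m8-HLH as called, and among 158 conservative calls with a signal under 30 it was one of 157 that overlapped a stronger call. Just outside the window stood the neur, m3, Su(H) and m8 summits at 562, 584, 600 and 690 bp.

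Sequences are shown around the 2 stronger summits, since they are the strongest conservative calls of the complex, and for the 250 bp upstream of E(spl)m8-HLH, E(spl)m5-HLH and E(spl)m4-BFM, since these 3 promoters of the complex held a Su(H) binding string. Capitals mark any searched string in the summit windows and the Su(H) string in the promoters, 5′ to 3′ on the strand of the gene. The m3 summit window is chr3R:26021189-26021289 on the plus strand, and the m8 summit window is chr3R:26039450-26039650 on the plus strand. The m3 window reached 50 bp to each side of its summit and the m8 window 100 bp, so their matches cannot be compared. Within 50 bp the m8 summit had none of the strings, and within 100 bp the m3 summit had the string GAGAG. The promoters are chr3R:26039990-26040239 on the plus strand for m8, chr3R:26029736-26029985 on the minus strand for m5 and chr3R:26024580-26024829 on the minus strand for m4.
m3 summit: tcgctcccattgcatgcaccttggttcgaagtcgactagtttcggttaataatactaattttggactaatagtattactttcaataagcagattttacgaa
m8 upstream summit: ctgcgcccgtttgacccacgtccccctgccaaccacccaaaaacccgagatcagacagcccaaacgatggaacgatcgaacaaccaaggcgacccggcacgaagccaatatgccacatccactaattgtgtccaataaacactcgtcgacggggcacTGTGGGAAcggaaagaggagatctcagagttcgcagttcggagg
m8 promoter: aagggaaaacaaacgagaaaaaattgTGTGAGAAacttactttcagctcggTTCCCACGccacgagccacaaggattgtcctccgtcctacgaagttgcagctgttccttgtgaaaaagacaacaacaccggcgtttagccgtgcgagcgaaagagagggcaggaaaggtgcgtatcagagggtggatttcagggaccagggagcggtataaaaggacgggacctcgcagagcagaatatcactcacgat
m5 promoter: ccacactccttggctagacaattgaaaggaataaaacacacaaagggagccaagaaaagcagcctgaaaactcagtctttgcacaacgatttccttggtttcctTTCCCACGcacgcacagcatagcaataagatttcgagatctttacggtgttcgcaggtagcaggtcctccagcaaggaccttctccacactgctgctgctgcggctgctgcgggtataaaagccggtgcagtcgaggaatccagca
m4 promoter: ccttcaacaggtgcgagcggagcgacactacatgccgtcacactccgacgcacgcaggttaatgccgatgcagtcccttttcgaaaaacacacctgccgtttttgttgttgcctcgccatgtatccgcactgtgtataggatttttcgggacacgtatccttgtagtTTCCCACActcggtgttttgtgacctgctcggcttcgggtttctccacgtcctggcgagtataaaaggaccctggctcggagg
The Su(H) string in the m8 summit window began 633 bp upstream of the TSS, and its nearest base was 57 bp from the summit. In the promoters the strings began 224 and 199 bp upstream of m8, 146 bp upstream of m5 and 83 bp upstream of m4. The ranked promoter calls of these genes were modest, with 26.7 in replicate 1 and 21.9 in replicate 2 at m8, 29.7 in replicate 1 and 35.2 in replicate 2 at m5, and 22.3 in replicate 1 and 25.6 in replicate 2 at m4.

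**Figure D3:**
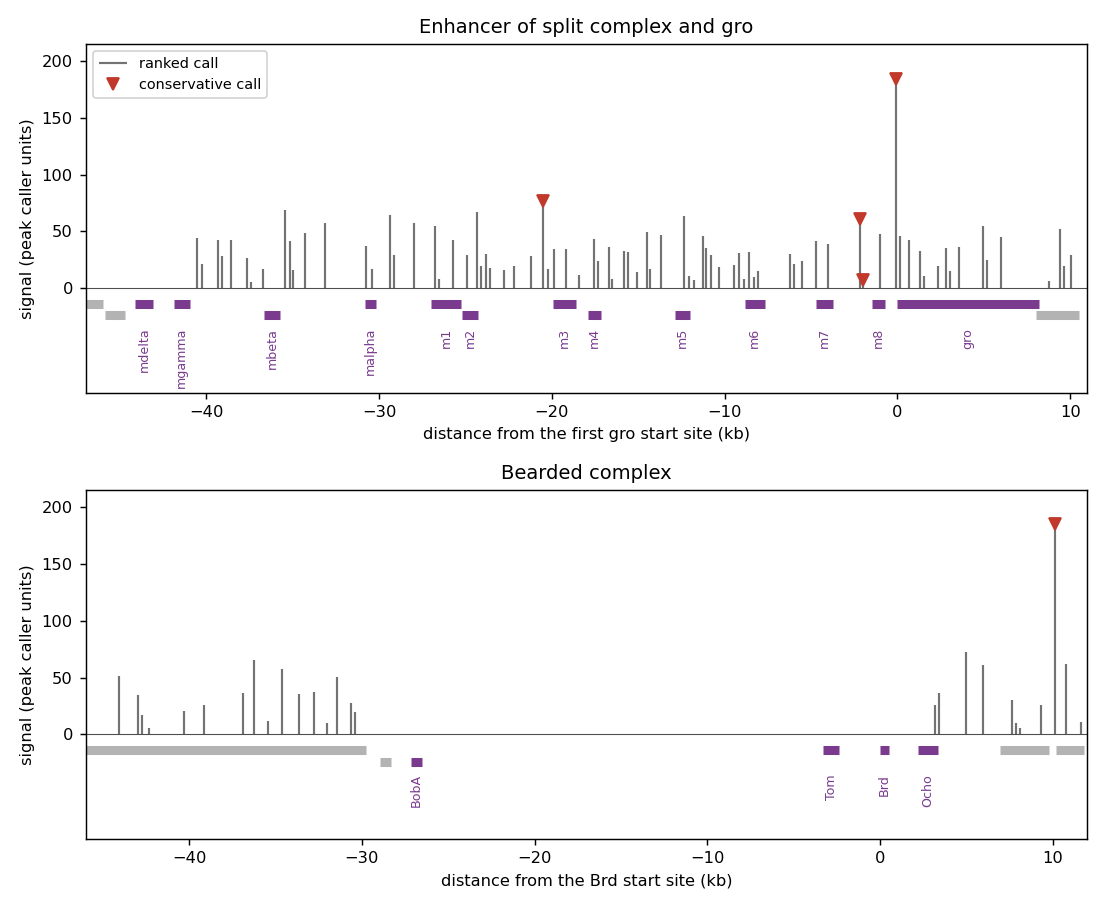
Calls of the ranked list behind the conservative list (grey lines, height is signal in peak caller units) and conservative calls (red triangles) across the E(spl) complex with gro (above) and the Bearded complex (below), by distance in kb. Purple bars are the genes described and grey bars are other protein-coding genes, drawn in 2 rows by strand. Many weak calls fill the E(spl) complex, where gro alone reaches 184, and the Bearded complex is nearly empty of calls.

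Among the other bHLH genes, E(spl)mbeta-HLH had the strongest promoter call in replicate 1, with 41.8, and 21.2 in replicate 2. E(spl)m3-HLH had 35.1 in replicate 1 and 6.29 in replicate 2 within 500 bp of its TSS. E(spl)mdelta-HLH had 16.3 in replicate 1 and no ranked call in replicate 2, and E(spl)mgamma-HLH and E(spl)m7-HLH had none in either replicate. Among the Bearded family genes of the complex, E(spl)m2-BFM was highest, with 41.1 in replicate 1 and 31.0 in replicate 2, and at 67.4 across replicates with an IDR of 0.0124 it was the target promoter call nearest to the conservative limit that did not pass. E(spl)m6-BFM was lowest in replicate 1, with 17.0, and had 10.3 in replicate 2, while E(spl)malpha-BFM had 21.0 in replicate 1 and 9.88 in replicate 2. The m1 gene had 39.8 in replicate 1 and 17.6 in replicate 2. The target promoters with a ranked call in replicate 1 ranged from 6.61 to 41.8 with a median of 26.7, which overlapped the 10 components that were not called, at 16.6 to 49.5 with a median of 29.5.

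The Bearded complex, at chr3L:14945499-14976040, was nearly free of calls of any strength. Over 30.5 kb it held 0 summits in every thresholded list, where genome rates of 0.126 to 0.244 per 10 kb give less than 1 in such a stretch, and 1 in the ranked list behind the conservative one, or 0.327 per 10 kb, against 10.8 per 10 kb over the genome. That summit had a signal of 26.0 and lay within Ocho. Replicate 1 had 8 ranked summits there, with signals of 6.61 to 27.1 and IDR values of 0.438 to 0.891, and replicate 2 had 0. Accordingly Ocho had 27.1 in replicate 1, Tom had 14.8 and BobA had 6.61, none of the 3 had a promoter call in replicate 2, and Brd had none in either replicate. The longest stretch between neighbouring summits here in the ranked list behind the conservative one was 33.5 kb, against a median of 0.625 kb on the arm, and 18 gaps on arm 3L were at least that long, this one included. On either side calls resumed in that list, with 33 summits in the 50 kb to the left and 62 in the 50 kb to the right. In the ranked list of replicate 1 the longest stretch was 23.0 kb, and 58 gaps on the arm were at least that long. In replicate 2 it was 33.1 kb, with 14 such gaps. Repeated sequence was measured as the share of 50-base windows that occur more than once in the assembly. It was 6.56% in the Bearded complex, 0.00923% in the E(spl) complex and 13.1% in windows sampled over the main arms, chromosome Y included. Within the Bearded complex it was 0 in Brd, Tom and Ocho. It was 64.5% in BobA, which has near-identical copies, so reads at BobA may not be placed uniquely. Whether repeats bear on the lack of calls was not tested.

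Ranked calls allowed the whole set to be compared below the threshold. Near a TSS, the ranked list behind the conservative list had a call for all 16 components and 10 of 16 targets, against 84.6% of all genes. The list behind the second one had 16 components and 11 targets, against 86.2%. Replicate 1 had 16 components and 13 targets, against 83.5%, and replicate 2 had 14 components and 9 targets, against 81.2%. Within gene bodies, in the same order of lists, 15, 16, 16 and 16 components and 10, 11, 14 and 8 targets had one, against 88.7%, 89.8%, 87.6% and 87.4% of all genes. Ranked calls were thus present at most genes. Per kb of gene body, the ranked list behind the conservative list had a median of 1.35 summits in components, 1.16 in targets and 1.34 in all genes.

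By median strength within 500 bp of a TSS, the components lay above all genes and the targets slightly below them, in each replicate. The median promoter signal of the genes with a ranked call was 37.0 for components and 26.7 for targets in replicate 1, where that of all genes was 27.3. In replicate 2 it was 31.2 for components and 21.2 for targets, where that of all genes was 22.6. With a 1000 bp window the order turned for the targets in replicate 2, at 26.5, where that of all genes was 24.5. Above the all-gene median stood 13 of 16 components and 5 of 13 targets in replicate 1, and 13 of 14 components and 3 of 9 targets in replicate 2. Genes with no ranked call, 3 targets in replicate 1 and 7 targets and 2 components in replicate 2, have no value in these medians. Genes with several start sites, most of them components, had several windows here as well. Among genes with a ranked call near a TSS, the 6 called components ranged from the 84.4th to the 94.5th percentile in replicate 1. In replicate 2 they ranged from the 67.9th to the 93.1st. These 6 were picked as called, so high percentiles follow in part from that choice. Signal was higher in replicate 1 at 11 of 14 components and 7 of 9 targets with calls in both, as at 67.4% of 10273 genes, and the median ratio of replicate 1 to replicate 2 was 1.44 for components, 1.65 for targets and 1.23 for all genes.

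**Figure D4:**
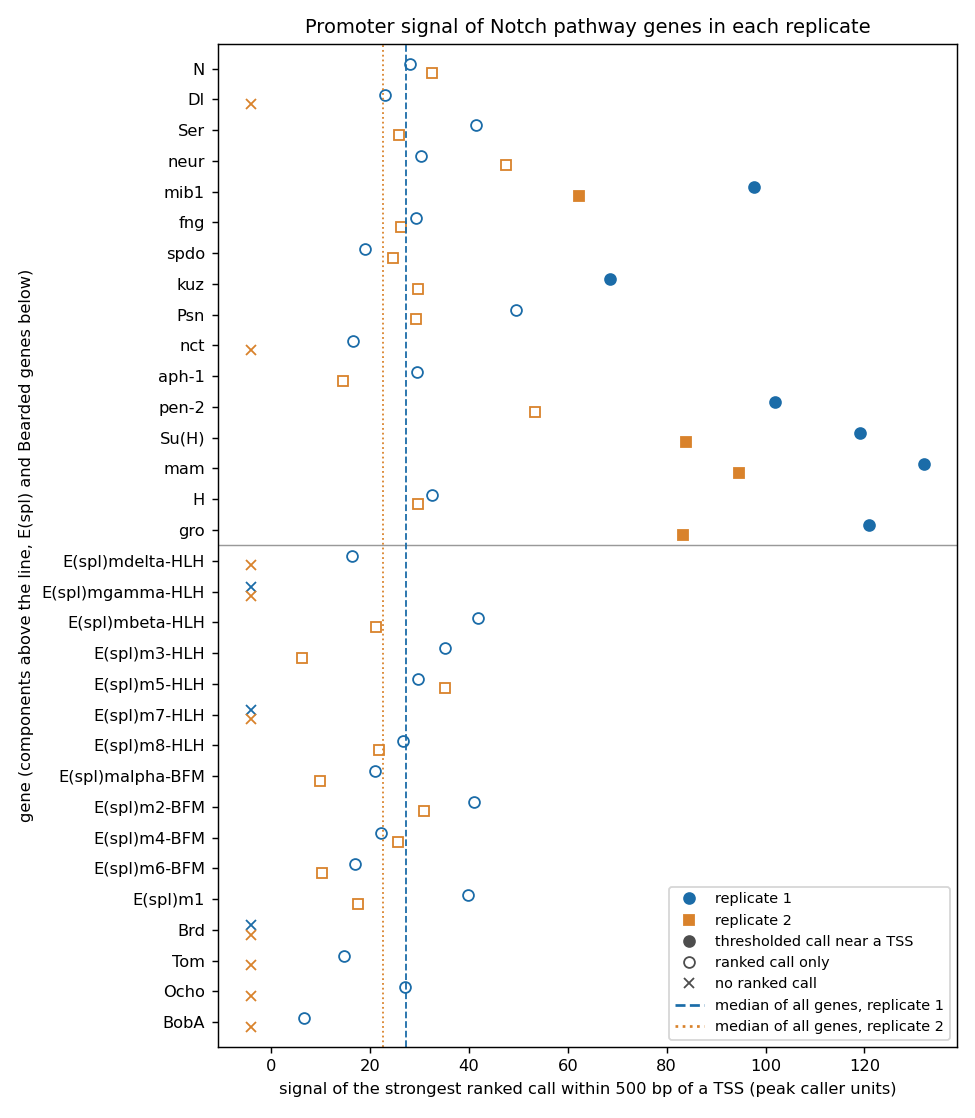
Signal (peak caller units) of the strongest ranked call within 500 bp of a TSS for each of the 32 genes in replicate 1 (blue circles) and replicate 2 (orange squares), with components above the grey line and E(spl) and Bearded genes below it. Filled symbols are genes with a thresholded call near a TSS in that replicate, crosses mark no ranked call, and dashed and dotted vertical lines are the medians of all genes, 27.3 and 22.6. mib1, pen-2, Su(H), mam and gro stand apart on the right in replicate 1, and the E(spl) and Bearded genes scatter around the medians.

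Short strings were counted at the summits and in the promoters of components and targets, whether called or not. The strings were the DRE (TATCGATA), the Su(H) site (TGTGGGAA, CGTGGGAA, TGTGAGAA or CGTGAGAA), the E-box with the letters CAGCTG, that with CACCTG, that with CACGTG, the N-box CACNAG, the GAGA string GAGAG and the M1BP core GGTCACACT, all read on both strands. Matches of different strings may overlap, and a gene with several start sites had several windows. Within 50 bp of the 10 conservative summits near a TSS or in the body of these genes, the DRE was found at 1, that of Su(H), against 18.1% of all 2793 conservative summits. No Su(H) site was found at these 10, against 0.967% of all. In promoters, taken as 250 bp upstream to 50 bp downstream of any TSS of a gene, the Su(H) site was found in 1 of 16 components (nct) and in 4 of 16 targets (m8, m5, m4 and Ocho), against 4.21% of all genes. The E-box CACGTG was found in 0 components and 4 targets, against 5.29% of all genes, and CACCTG in 0 components and 5 targets, against 12.4%. CAGCTG ran the other way, in 5 components and 1 target, against 22.3%. The DRE was found in the promoters of 2 components, pen-2 and Su(H), and of 0 targets, against 10.2%, and the M1BP core in 2 components, N and neur, and 0 targets, against 6.77%. The N-box was in 10 components and 6 targets and the GAGA string in 8 components and 11 targets, each against 36.2% of all genes. A match is a run of letters and not a measured site, and the absence of one says only that these letters are not in the window.

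Beyond these genes, 47 further genes written as regulators, partners or proneural neighbours of the pathway were looked up in the same way. A conservative summit lay near a TSS of 16 of the 47, a second-list summit near 16, and a summit of replicate 1 near 14 and of replicate 2 near 12, against 19.4%, 21.4%, 18% and 13.6% of all genes in the same 4 lists. The written name hid1 was matched by synonym to hid, a cell-death gene that may not be the one meant. It is counted among the 47 and had no thresholded call near a TSS. The strongest was shi, the dynamin that pinches off endocytic vesicles, with 259 in replicate 1, 240 in replicate 2 and 507 across replicates. aux, a cofactor of clathrin uncoating needed for ligand activity, had 176 in replicate 1, 158 in replicate 2 and 352 across replicates. Other called genes of endocytosis and ubiquitin transfer were lqf (epsin) at 163 across replicates, mib2 at 184, Su(dx) at 175, lgd at 145 and Cbl at 87.8. Called nuclear genes were kto, a subunit of the Mediator kinase module, at 214, sno at 152, the bHLH partner da at 139 and insv, a Su(H) corepressor, at 87.8. The others were Nle at 193, the furin protease gene Fur1 at 156, the Notch O-glucosyltransferase gene rumi at 111, Akap200 at 90 and uif at 76.8. Nak, named after its values were seen, was called near a TSS in both replicate lists, with 113 in replicate 1 and 92.6 in replicate 2, and in neither list across replicates. The proneural bHLH genes ac, sc, l(1)sc, ase, ato and amos had no thresholded call near a TSS in any list, nor did the E(spl) relatives dpn and Hey. Their ranked promoter calls reached at most 33.1 in replicate 1, at ato, and 26.2 in replicate 2, at sc.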

How the data were processed

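Peak lists from anti-GFP ChIP-seq of 2 samples in 1 group were used as deposited. Per the labels, the build is dm6, chromatin was sonicated and the fragment size range was 200 to 800 bp. No aligner or peak caller is named in the sources used here. The deposited signal is the caller's value for a call and was not rescaled between lists. The deposited score is an integer and is larger where the IDR is lower. The ranked lists also hold the authors' −log10 of the IDR. In the ranked lists across replicates, 16 further columns tied to single samples stayed unused. The labels call the replicates biological but do not say whether they came from separate embryo collections, so the spread between them may be partly technical.

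Summits were placed against start sites of Ensembl release 115 and sequence of genome release 6 in Python 3.11.15 (pandas 2.3.3, numpy 2.4.6, matplotlib 3.10.9); 0 peaks and 0 genes ran past an arm's end. The share of repeated 50-base windows, sampled every 1000 bp on the arms, was added after seeing the data. Counting was tested on simulated data. Medians are over genes with a call. No test was made, since 1 group has no contrast and genes are not replicates. Every listed pathway or target gene with a thresholded call is given in both replicates, with the strongest and weakest of each role. Further genes were named where the conservative list had a summit near a TSS. Alternatives were the second list, each replicate alone, the 500 strongest peaks, 1 call per overlapping cluster, 250 and 1000 bp windows, nearest start site only, bodies without their start sites and 100 bp motif windows. The members and lists were chosen with earlier results of these data known.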

Additional observations from a re-analysis of the deposited data

How the results depend on the processing

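Leaving out a replicate meant using the thresholded list of the other alone. The number of components called near a TSS was then 4 to 6, against 6 in the conservative list, that of targets 0 in both cases, against 1, that of all 32 genes 4 to 6, against 7, and that of genes with a body summit 0 to 3, against 4. Among the 500 strongest conservative peaks there were 0 components, 0 targets, 0 of the 32 genes near a TSS and 0 in bodies, where 4.72% and 0.938% of all genes were called. The target count was also 0 in the second list, with 1 call per overlapping cluster and with a 250 bp window, and was 2 with a 1000 bp window, which added E(spl)m3-HLH. It thus rests on the 1 weak call at E(spl)m8-HLH. The median of target promoters in replicate 2 was 10.3 with a 250 bp window and 26.5 with a 1000 bp window, against 21.2, and all genes had 22.0, 24.5 and 22.6. Of all recomputed values, some of them given above, 26 stayed within 1.5 times of the count or within the spread of the genes, and 13 did not. No paired analysis was possible because there is only 1 group. Depth is unknown, so whether deeper sequencing would raise ranked calls over the threshold cannot be told from these lists.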
